A study of Mus musculus with 6 samples.

Results

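Cell division genes were examined in the tissues where red blood cells are made. Transcripts of 5050 genes were imaged in situ in a 5 µm section of a mouse fetal liver at embryonic day 13.5 (E13.5) and in a 5 µm section of the bone marrow of a mouse of 89 weeks. Of these genes, 74 were taken as cell cycle genes by their names: cyclins A, B, D and E (Ccn), cyclin-dependent kinases and their inhibitors (Cdk, Cdkn), and genes named Cdc, E2f, Mcm, Aurk, Plk, Bub1, Kif and Cenp with the number or letter that follows, plus Mki67 and Top2a. Ube2c was not among the 5050 genes and Mcm2 was the only Mcm gene. A name does not make a gene a cell cycle gene: 10 of the 74 were grouped as transport kinesins, most of which carry cargo along microtubules. Another 14 were grouped apart from the core cycle, such as Cdc42, a regulator of the cytoskeleton.

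Both animals were wild type, and per the study's methods of the C57BL/6 strain, and neither was treated. The sections lay on 1 slide and were imaged in the same run, with cells outlined by boundary stains. Per the study's methods, the fetal liver was fixed in formalin and embedded in paraffin. Bone marrow was fixed in paraformaldehyde, embedded in gelatin, cut while frozen and freed from bone, and only then embedded in paraffin. Tissue, age and preparation therefore differed together and cannot be told apart. Another 4 sections were imaged on a panel of 477 genes that held Cenpf and Ube2c only: a wild-type E14.5 fetal liver, wild-type bone marrow of postnatal day 8 (P8), a wild-type adult spleen, and the spleen of a mouse given phenylhydrazine (PHZ, 40 mg per kg per dose), which destroys red cells. Each condition was 1 section. There was therefore no replicate and no test, and every interval below is a 95% interval that covers counting error only.

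After cells with under 5 detected genes were left out, the fetal liver held 5254 cells with 1384754 transcripts and a median of 191 per cell, and the marrow held 140707 cells with 13044446 transcripts and a median of 62. The 74 genes took 3.19% of these counts in the fetal liver and 2.71% in the marrow. The most abundant of 40 negative probes gave 1 and 18 counts. Levels are given as CPM, the counts of a gene summed over a class of cells per 1000000 counts of all panel genes in that class. Since 71 of the 74 genes were read by 2 probe sets and the probes differ in efficiency, levels of different genes were not ranked as molecule numbers. Erythroid transcripts were present in both sections: the 11 erythroid marker genes on the panel summed to 51552 CPM in the fetal liver and 43602 CPM in the marrow. Hepatocyte genes, at 23608 and 23.5 CPM, and granulocyte genes, at 1490 and 37564 CPM, set the tissues apart.

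The cell cycle runs through a fixed order of kinase activities. D cyclins with Cdk4 and Cdk6, then cyclin E with Cdk2, release E2F factors that switch on the genes of DNA replication, and Cdkn proteins hold these kinases back. Cdc6 loads the Mcm helicase onto origins before S phase. Cyclins A and B with Cdk1, the Aurora and Polo-like kinases, mitotic kinesins and centromere proteins then bring the cell through mitosis, and the anaphase-promoting complex ends it. Erythroid precursors divide several times while they fill with hemoglobin, and then leave the cycle before they lose the nucleus.

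Promoters of genes that peak in mitosis are known for CCAAT boxes and for a cell cycle homology region (CHR), and promoters of replication genes for E2F sites. The RefSeq promoter table on GRCm38.p6 held 59 of the 74 genes. The 250 bases before their starts were searched on both strands for CCAAT, for the CHR word TTTGAA, and for the E2F words TTTCCCGC, TTTCGCGC, TTTGCCGC and TTTGGCGC. CCAAT was found in 57.6% of the 59 genes, in 16 of the 21 matched genes of mitosis (76.2%) and in 37.5% of the 27025 genes of the table. The CHR word was found in 16.9% of the members and in 5 of the 21 genes of mitosis (23.8%), against 18.3% of all genes and 13.3% of the 3874 matched panel genes. An E2F word was found in 10.2%, against 2.16% of all genes and 3.23% of those of the panel, where CCAAT was found in 39.0%. A match of letters is a description and no binding site. The windows of 30 bases below belong to genes on which the results turn, written 5′ to 3′ along the gene, with the matched word in capitals. Mki67 encodes a protein that coats mitotic chromosomes, and the nearer of its 2 CHR words lay on the minus strand at chr7:135716460-135716489. For Cdk1, the mitotic kinase, the farther of 2 CHR words lay at chr10:69352966-69352995 and an E2F word at chr10:69353025-69353054, both on the minus strand. One CCAAT box each is shown for Ccnb1 (cyclin B1, chr13:100786536-100786565, minus strand), Plk1 (chr7:122159405-122159434, plus strand), Top2a (the topoisomerase that untangles sister chromatids, chr11:99024250-99024279, minus strand), Cenpf (chr1:189688140-189688169, minus strand) and E2f2 (chr4:136172244-136172273, plus strand). The E2F word of Cdc6 (chr11:98908002-98908031, plus strand) and the CCAAT box of the inhibitor Cdkn2d (chr9:21291412-21291441, minus strand) read on the opposite strand.
Mki67 (CHR): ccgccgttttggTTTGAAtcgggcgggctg
Cdk1 (CHR): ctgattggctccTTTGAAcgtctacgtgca
Cdk1 (E2F): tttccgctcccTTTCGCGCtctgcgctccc
Ccnb1 (CCAAT): gccacgaactggCCAATgaggagcgagcgg
Plk1 (CCAAT): ttttaaatccccgcggCCAATcagcaacgc
Top2a (CCAAT): ctgcaaacagagCCAATgagagcgagtcgg
Cenpf (CCAAT): ctctcgccatggCCAATgggcgtggaggct
E2f2 (CCAAT): tatatatattgtagcagCCAATcgaggcgc
Cdc6 (E2F, opposite strand): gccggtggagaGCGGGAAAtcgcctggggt
Cdkn2d (CCAAT, opposite strand): caacgcgtgctgATTGGctgttattcccag

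Over whole sections, most cell cycle genes took similar shares of the transcripts in the fetal liver and in the aged marrow. Of 68 members with at least 100 counts over both sections, 6 were at least 2-fold higher in the fetal liver and 6 at least 2-fold lower. Among all 3637 genes compared, 18.5% were that much higher and 24.8% that much lower. The median log2 ratio of the members was 0.24, against -0.01 for all genes. The other 6 members (Ccna1, Ccnb3, Cdk5r2, Cdkn2b, Kif2b and Kif5a) gave too few counts to compare.

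The CDK inhibitors went both ways, with 1 of the 6 compared past the fold upward and 3 downward. Cdkn1c (p57), an imprinted inhibitor of fetal growth, took 1480 CPM in the fetal liver and 39.6 CPM in the marrow, a log2 ratio of 5.23 [5.09, 5.37]. Cdkn1b (p27) took 221 CPM against 753 CPM, and Cdkn2c (p18) 152 CPM against 420 CPM, with log2 ratios of -1.77 [-1.94, -1.60] and -1.47 [-1.68, -1.27]. Cdkn2a, the senescence-linked locus of p16 and p19, gave 2 counts in the fetal liver and 201 in the marrow, a log2 ratio of -3.42 with an interval from -6.47 to -1.54. Cdkn2d (p19 INK4d) took 513 CPM against 913 CPM, which is below 2-fold, and Cdkn1a (p21), the inhibitor induced by p53, took 15.9 CPM against 23.4 CPM. The 7 inhibitors together summed to 2385 CPM and 2166 CPM.

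Among the cyclins and kinases of G1, Ccnd1 took 526 CPM in the fetal liver and 106 CPM in the marrow (log2 ratio 2.31 [2.18, 2.44]), and Ccne1 566 CPM against 201 CPM (1.49 [1.37, 1.61]). The other D cyclins differed less: Ccnd3, the D cyclin known to set the number of erythroid divisions, took 2955 CPM and 2339 CPM, and Ccnd2 439 CPM and 642 CPM. Cdk6 took 168 CPM against 317 CPM, Cdk4 41.2 CPM against 29.2 CPM, and Cdk2 222 CPM against 246 CPM. Of the E2F factors, E2f5, a member linked to repression, was the one past the fold, at 146 CPM against 31.7 CPM. E2f2, which is abundant in erythroid cells, took 991 CPM and 1238 CPM.

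The genes of mitosis were close. Their 24 members, which include the centriole kinesin Kif24, summed to 14383 CPM in the fetal liver and 12494 CPM in the marrow. The log2 ratio was 0.20 [0.18, 0.22]. Mki67, the member with the most counts in both sections, took 4688 CPM and 4357 CPM, Ccna2 1991 CPM and 1546 CPM, and Top2a 1033 CPM and 1364 CPM. Ccnb1, at 552 CPM against 275 CPM, lay just past the fold with a log2 ratio of 1.01 [0.89, 1.12], and Aurka and Plk1 just under it at 0.95 and 0.93. Mcm2, a subunit of the replicative helicase, took 1389 CPM against 939 CPM. Outside the core cycle, the stress-induced kinase Plk2 was higher in the fetal liver (132 CPM against 23.5 CPM), whereas Cdc42 (88.8 against 205 CPM) and the neuronal and lymphoid kinesin Kif21b (142 against 405 CPM) were lower. Kif19a, a kinesin of cilia, gave 1 count against 131, a log2 ratio of -3.80 [-9.11, -1.29]. Of 28 other cell cycle genes on the panel, such as Pcna and Birc5, 1 was higher and 2 were lower.

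These directions refer to shares of transcripts. Fetal liver cells held more transcripts each, so counts per cell raised every log2 ratio by 1.51, and counts per cell area by 0.99. Per cell, 54 of 68 members were at least 2-fold higher in the fetal liver and 2 were lower. The shift held for every gene of the panel, and the share of all genes past the fold per cell was not counted. Whether these counts are particular to the members therefore cannot be told. Cdc42 and Cdkn2c changed sign to 0.30 [0.03, 0.57] and 0.04 [-0.17, 0.24], and the interval of Cdkn2c holds 0.

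**Figure D1:**
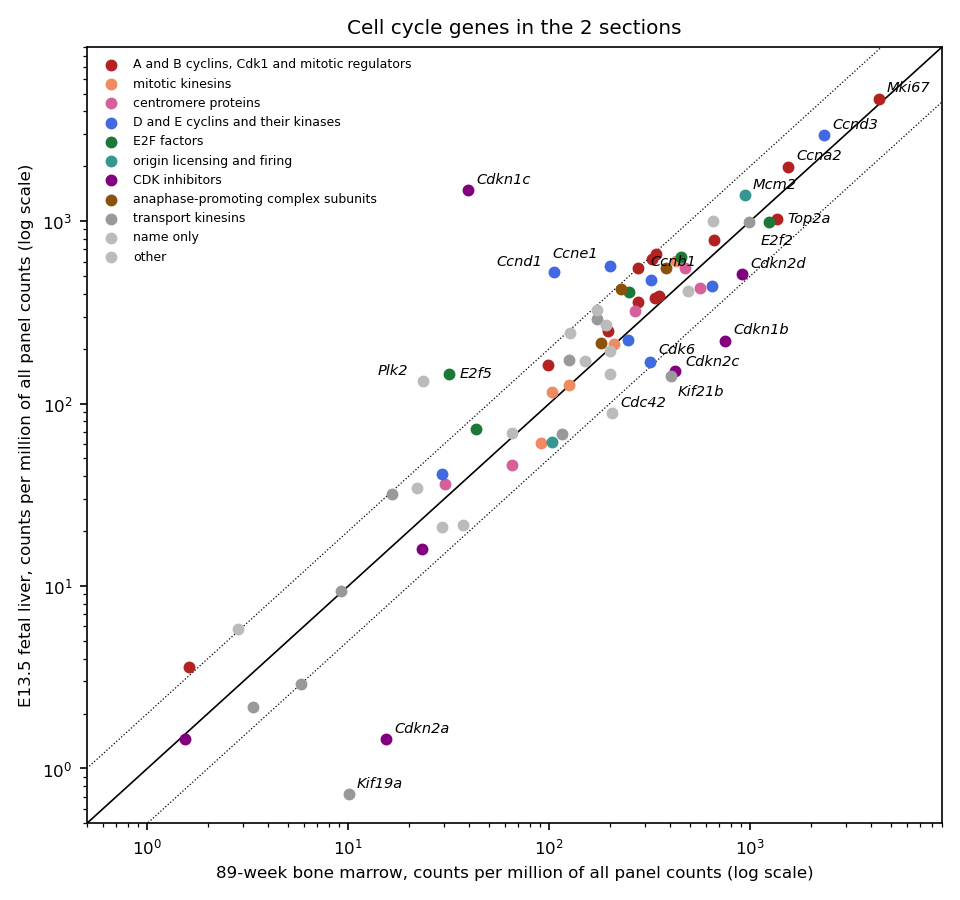
Level of each cell cycle gene in the 89-week bone marrow (horizontal axis) and in the E13.5 fetal liver (vertical axis), both in CPM on log axes and coloured by role, with a solid line at equality and dotted lines at 2-fold. Most genes lie between the dotted lines; Cdkn1c lies far above them at 1480 against 39.6 CPM, and Cdkn1b and Cdkn2c lie below.

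Klf1 is the transcription factor that drives the erythroid program, and cells with at least 1 Klf1 transcript were set against cells with none. They were 1682 cells (32.0% [30.8%, 33.3%]) of the fetal liver and 12078 cells (8.58% [8.44%, 8.73%]) of the marrow. The Klf1-detected class was deeper, with a median of 273.5 counts against 157 per cell in the fetal liver and 159 against 57 in the marrow. The class without Klf1 was not free of erythroid transcripts, since the erythroid list, Klf1 included, summed there to 42524 CPM in the fetal liver and 29697 CPM in the marrow, against 63399 and 106303 CPM in Klf1-detected cells. C1q transcripts, which mark macrophages, were found in 15.3% and 21.3% of Klf1-detected cells. Transcripts of neighbouring cells and doublets were not removed.

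In the marrow, genes of replication and mitosis were higher in Klf1-detected cells as a group. Of 68 members compared, 25 were at least 2-fold higher and 11 at least 2-fold lower, where 6.61% of all 3467 genes were that much higher and 34.6% that much lower. The members' median log2 ratio was 0.59, and that of all genes was -0.53. The 24 mitotic genes summed to 24833 CPM with Klf1 and 9758 CPM without, a log2 ratio of 1.35 [1.33, 1.36], and 17 of the 22 that could be compared were past the fold. Mki67 took 9393 CPM against 3240 CPM (1.54 [1.51, 1.56]), Ccna2 3313 against 1154 CPM (1.52 [1.48, 1.56]), Cdk1 587 against 209 CPM (1.49 [1.39, 1.58]) and Top2a 2453 against 1123 CPM (1.13 [1.08, 1.17]). The centromere proteins Cenpa, the histone H3 variant of centromeres, and Cenpf, a protein of the kinetochore, took 976 against 361 CPM and 1113 against 442 CPM.

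Among the higher members of the marrow, genes of entry into S phase had the first and second ratio in size. Ccne1 took 513 CPM with Klf1 and 132 CPM without (1.95 [1.84, 2.07]), Cdc6 247 against 71.2 CPM (1.79 [1.63, 1.95]), and Mcm2 2032 against 696 CPM (1.55 [1.49, 1.60]). Of the E2F factors, E2f4, which erythroid precursors are known to need, took 963 against 341 CPM, E2f2 2129 against 1040 CPM and E2f1 465 against 203 CPM. Ccnd3 took 4033 CPM against 1964 CPM (1.04 [1.00, 1.07]), whereas the other D cyclins were lower: Ccnd2 at 321 against 713 CPM (-1.15 [-1.26, -1.04]) and Ccnd1 at 57.4 against 117 CPM (-1.03 [-1.29, -0.77]). Cdk2, Cdk4 and Cdk6 stayed within 2-fold, with log2 ratios of 0.60, 0.52 and -0.20. Of the 28 other cell cycle genes, 17 were higher and none lower, among them Orc1, a subunit of the origin recognition complex, at 389 against 100 CPM, and Pcna, the sliding clamp of DNA polymerase, at 2568 against 958 CPM.

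The 7 inhibitors summed to 2722 CPM with Klf1 and 2042 CPM without, a log2 ratio of 0.41 [0.37, 0.45], and of the 6 compared 1 was past the fold in each direction. Cdkn2c was past the fold at 747 against 348 CPM, Cdkn2d took 1192 against 851 CPM and Cdkn1b 741 against 755 CPM. Cdkn1a took 9.29 against 26.5 CPM, a log2 ratio of -1.51 [-2.21, -0.89] from 22 and 283 counts. The kinesins of transport summed to 1182 against 2003 CPM, a log2 ratio of -0.76, and 4 of the 8 compared were at least 2-fold lower, where 34.6% of all genes were. Of these Kif21b took 113 against 470 CPM. Granulocyte genes summed to 10892 CPM in Klf1-detected cells and 43479 CPM in the others, megakaryocyte genes to 2713 and 11849 CPM, and B cell genes to 1062 and 3814 CPM. Their part in these ratios was not tested.

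In the fetal liver the same comparison gave smaller ratios. Of 53 members compared, none was 2-fold higher and 4 were 2-fold lower, with 1.34% and 16% of all 2160 genes past the fold, and the medians were 0.29 for members and -0.03 for all genes. With detection at 2 counts 1 was higher and 6 lower, in thinned cells 1 and 1, and at 100 to 300 counts 0 and 1. The share of all genes was not counted at these settings. The mitotic genes summed to 16943 CPM with Klf1 and 12432 CPM without, a log2 ratio of 0.45, and the inhibitors to 1576 and 3002 CPM, a log2 ratio of -0.93 [-1.04, -0.82] that was -0.29 among cells of 100 to 300 counts. Mki67 took 5425 CPM against 4127 CPM (0.39 [0.32, 0.47]), Ccna2 2530 against 1580 CPM (0.68 [0.57, 0.79]), Mcm2 1840 against 1046 CPM (0.81 [0.68, 0.95]), Ccne1 748 against 428 CPM (0.81 [0.60, 1.02]) and E2f4 855 against 471 CPM (0.86 [0.66, 1.06]). Lower were Cdkn1c, at 765 against 2026 CPM (-1.41 [-1.56, -1.25]), Plk2, at 30.1 against 210 CPM (-2.80 [-3.59, -2.10]), the transport kinesin Kif1b and the Cdc42 effector Cdc42bpb, the last pair at a log2 ratio of -1.13 each. Ccnd1 and Ccnd2 had log2 ratios of -0.79 and -0.70. The difference between the tissues in these ratios was not tested; the erythroid list, which includes Klf1 itself, differed by 1.84 on the log2 scale between the Klf1 classes of the marrow and by 0.58 between those of the fetal liver. Markers of other cells were lower in Klf1-detected cells of the fetal liver: endothelial genes at 977 against 2264 CPM (4 of 5 compared past the fold), megakaryocyte genes at 840 against 1877 CPM (4 of 4), granulocyte genes at 867 against 1965 CPM (4 of 4), macrophage genes at 3011 against 6127 CPM (6 of 11) and hepatocyte genes at 20091 against 26289 CPM (0 of 5). Their part in the lower Cdkn1c and inhibitor sum was not tested.

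**Figure D2:**
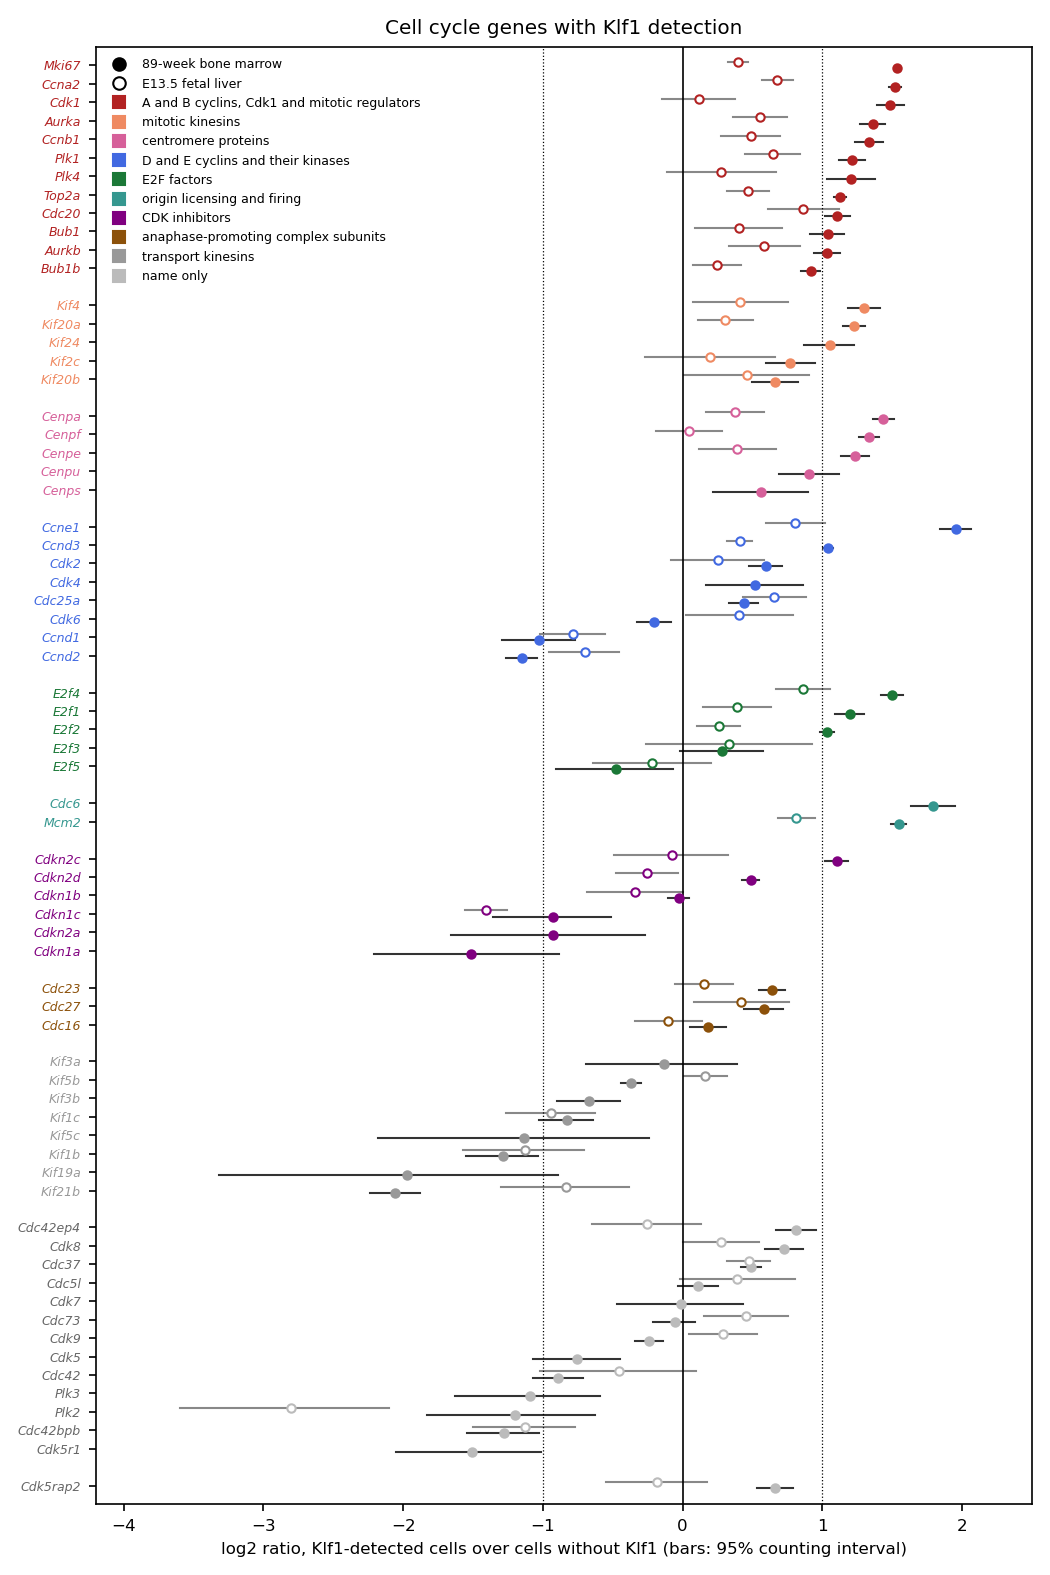
Log2 ratio of CPM in Klf1-detected cells over cells without Klf1 for 68 cell cycle genes grouped by role, with filled points for the 89-week bone marrow, open points for the E13.5 fetal liver, bars for 95% counting intervals and dotted lines at 2-fold. Mitotic and replication genes lie to the right of 0 in both sections, and most of them further right in the marrow, where Mki67 stands at 1.54 against 0.39 in the fetal liver.

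Klf1-detected cells span many stages, and Slc4a1, the anion exchanger band 3 that accumulates as red cells mature, was used to order them. Klf1-detected cells with at least 50 counts were cut into 4 bins of equal size by the share of Slc4a1 among their counts, and Slc4a1 was left out of the totals. The other erythroid markers, without Klf1, summed to 21408 CPM in the lowest and 92442 CPM in the highest bin of the fetal liver, and to 41140 and 125236 CPM in the marrow, while progenitor genes went from 2238 to 611 CPM and from 2744 to 519 CPM. Markers of other cells moved along it too, macrophage genes from 1505 to 5194 CPM and hepatocyte genes from 24333 to 15066 CPM in the fetal liver. In the marrow megakaryocyte genes went from 4897 to 1107 CPM, B cell genes from 1536 to 499 CPM, endothelial genes from 628 to 134 CPM and granulocyte genes from 11528 to 8126 CPM. Their part was not tested. Median depth went from 435.5 to 189 counts per cell in the fetal liver and from 169.5 to 145 in the marrow.

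By share of counts, some cell cycle genes were higher and others lower toward the Slc4a1-rich end. Of 50 fetal members 8 were at least 2-fold higher in the highest than in the lowest bin and 7 lower, against 7.8% and 19.6% of all 1680 genes. In the marrow 15 of 58 members were higher and 14 lower, against 7.54% and 50.2% of 2533 genes. In both tissues Cdkn2d, E2f2, Mki67, Cdkn2c and Cenpf were among the higher genes and Cdk6 and Ccnd2 among the lower ones. Among cells of 100 to 300 counts 8 members were higher and 2 lower of 28 in the fetal liver, against 11% and 18.1% of 565 genes, and 16 and 11 of 54 in the marrow, against 8.29% and 48% of 2172 genes.

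Cdkn2d, an inhibitor of Cdk4 and Cdk6, took 156, 313, 583 and 1375 CPM from the lowest to the highest bin of the fetal liver, and 328, 714, 1514 and 2861 CPM in the marrow. Cdk6 ran the other way, with 364, 145, 102 and 35.3 CPM and with 564, 345, 107 and 61.5 CPM, the last fetal value resting on 3 counts. The share of the inhibitor grew and that of the kinase shrank at every step in both sections. Cdkn2c took 66.3, 84.3, 284 and 282 CPM and 352, 630, 1072 and 1153 CPM. Cdkn1b took 408, 511, 865 and 1472 CPM in the marrow but 185, 223, 134 and 259 CPM in the fetal liver, and Cdkn1c stayed between 610 and 906 CPM in the fetal liver.

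E2f2 took 350, 807, 1749 and 2562 CPM in the fetal liver and 579, 1602, 3139 and 3957 CPM in the marrow. Mki67 took 2664, 4511, 7208 and 11893 CPM and 3937, 7415, 13114 and 16451 CPM. The 24 mitotic genes summed to 13160, 15809, 19741 and 25972 CPM and to 13720, 21820, 32523 and 38470 CPM. Without Mki67 the other 23 summed to 10496, 11298, 12533 and 14079 CPM and to 9783, 14405, 19409 and 22019 CPM. These are shares of totals that differed between bins. As raw counts the 24 fetal mitotic genes went down, at 2781, 2625, 2506 and 2210 in bins of 414 cells. In marrow bins of 2780 or 2779 cells they gave 8371, 14617, 18235 and 16886 counts. In the fetal liver Ccna2 took 2153, 2403, 2749 and 3620 CPM, Ccnb1 558, 693, 701 and 858 CPM, Aurka 615, 855, 930 and 1081 CPM, and Top2a 998, 1144, 1560 and 1563 CPM. Others did not climb at every step there. The mitotic kinesins took 1353, 1174, 1323 and 1375 CPM, Cdc20, the activator of the anaphase-promoting complex, 573, 572, 465 and 435 CPM, Cenpa 620, 705, 670 and 564 CPM, and Plk1 748, 777, 898 and 776 CPM. In the marrow the mitotic kinesins took 1301, 1670, 2062 and 2139 CPM and Cdc20 474, 578, 779 and 809 CPM.

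Some genes that act at the entry into S phase, picked after their values were seen, peaked in CPM in the last bin but 1 of the marrow. Mcm2 took 1767, 2248, 2538 and 1747 CPM, Ccne1 420, 566, 685 and 412 CPM, Cdc6 184, 269, 371 and 175 CPM, and E2f1 288, 569, 667 and 362 CPM. Ccnd3 peaked there too, at 2368, 4572, 5859 and 3811 CPM. The E2F factors as a sum did not peak there, at 1726, 3190, 5037 and 5529 CPM. As raw counts Mcm2, at 1078, 1506, 1423 and 767, and E2f1, at 176, 381, 374 and 159, were highest 1 bin earlier. In the fetal liver Mcm2 took 1675, 1897, 2158 and 1845 CPM and Cdc6, on 6 to 17 counts, 61.5, 102, 118 and 70.5 CPM. E2f1 climbed at every step there, at 355, 428, 607 and 693 CPM, Ccne1 took 719, 819, 796 and 693 CPM, and Ccnd3 1519, 3090, 5546 and 6041 CPM. Ccnd2 took 450, 343, 213 and 176 CPM in the fetal liver and ended at 169 CPM from 443 CPM in the marrow.

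**Figure D3:**
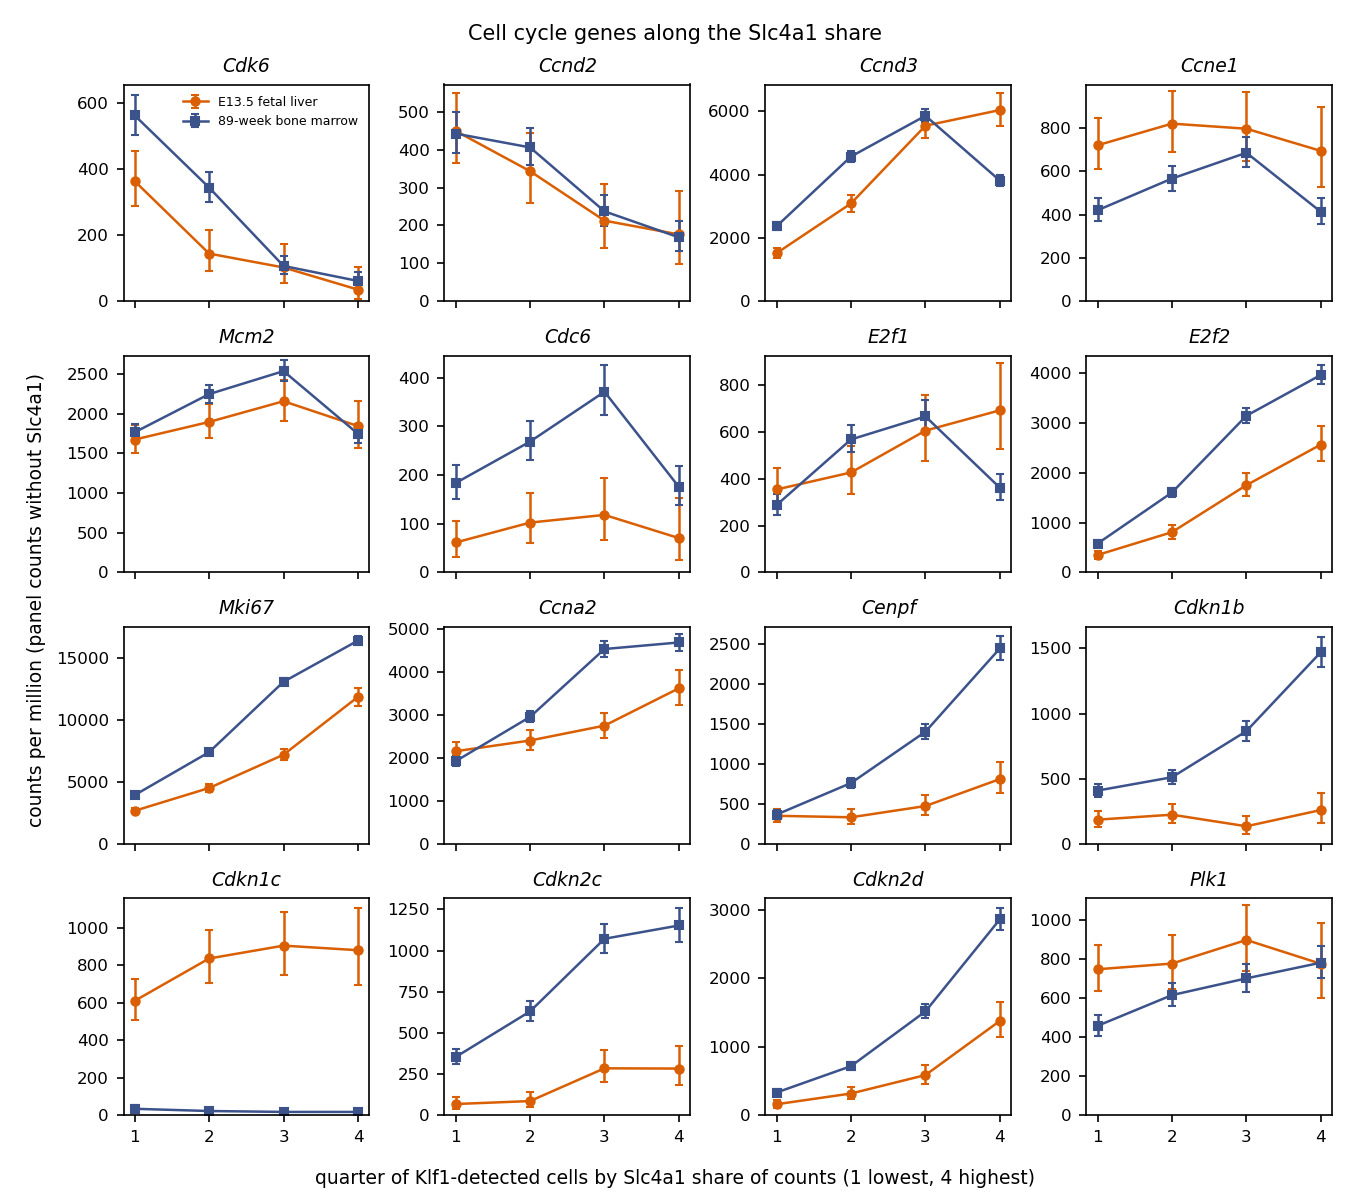
CPM of 16 genes in Klf1-detected cells by bin of the Slc4a1 share, from lowest to highest, in the E13.5 fetal liver and the 89-week bone marrow, with 95% Poisson intervals. Cdkn2d, E2f2 and Mki67 climb through the bins in both sections, Cdk6 declines, and Mcm2 in the marrow peaks at 2538 CPM in the last bin but 1.

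Kit, the receptor for stem cell factor, marks progenitors. Within Klf1-detected cells, 91 cells of the fetal liver and 339 of the marrow also had a Kit transcript. They were deeper, with a median of 606 against 265 counts and 347 against 156, and poorer in erythroid markers, at 28591 against 67572 CPM and 53677 against 109355 CPM. Macrophage genes were lower with Kit as well, at 749 against 3282 CPM in the fetal liver (9 of 11 past the fold) and 2650 against 4904 CPM in the marrow (8 of 13), and megakaryocyte genes took 1201 against 797 CPM (3 higher and 1 lower of 4) and 2527 against 2724 CPM; their part was not tested. Of 57 fetal members 2 were at least 2-fold higher with Kit and 7 lower, against 3.86% and 10% of 2201 genes. Among fetal cells of 100 to 300 counts, where 14 cells had Kit, 4 of 38 members were higher and 14 lower, against 16.3% and 34.3% of 1031 genes. With detection at 2 counts 18 members were past the fold, and the share of all genes there was not counted. In the marrow 4 of 63 were higher and 10 lower, against 13% and 13.5% of 2934 genes, and among cells of 100 to 300 counts 7 and 13 of 57, against 18.1% and 18.2% of 2541 genes.

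Cdk6 was past the fold in both sections, at 437 against 166 CPM in the fetal liver (1.39 [0.72, 2.02]) and 786 against 253 CPM in the marrow (1.64 [1.32, 1.94]). Cdkn2d was lower, at 156 against 499 CPM (-1.68 [-2.76, -0.78]) and 270 against 1246 CPM (-2.21 [-2.73, -1.73]), although among fetal cells of 100 to 300 counts its log2 ratio was -0.20. E2f2 took 390 against 1176 CPM and 562 against 2220 CPM, Ccnd3 1513 against 3665 CPM and 1625 against 4173 CPM, Cdkn2c 46.8 against 159 CPM (3 and 85 counts, log2 ratio -1.76 [-4.07, -0.17]) and 347 against 770 CPM, and Mki67 2730 against 5748 CPM and 4298 against 9688 CPM. For Mki67 the log2 ratios were -1.07 [-1.30, -0.85] and -1.17 [-1.30, -1.05]. Among fetal cells thinned to 50 counts those of Mki67 and E2f2 were -0.41 and -0.75. All of these values compare shares of counts. The classes differed in depth, and levels per cell were not compared, so a lower share need not mean fewer transcripts per cell.

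Several other genes of the cycle were within 2-fold. Ccna2 had log2 ratios of -0.24 and -0.75, Mcm2 -0.31 and -0.44, Ccnb1 -0.44 and -0.52, Cdk1 0.12 and -0.86, and the summed mitotic genes -0.40 and -0.75. Cenpf was past it in the marrow, at 293 against 1161 CPM, a log2 ratio of -1.99, against -0.62 in the fetal liver. Ccnd1 was higher with Kit in the marrow, at 154 against 51.8 CPM from 20 and 116 counts, and not in the fetal liver, at 250 against 387 CPM; this difference was not tested. Of the 28 other cell cycle genes 1 was higher and 4 lower in the marrow, and none was past the fold in the fetal liver.

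**Figure D4:**
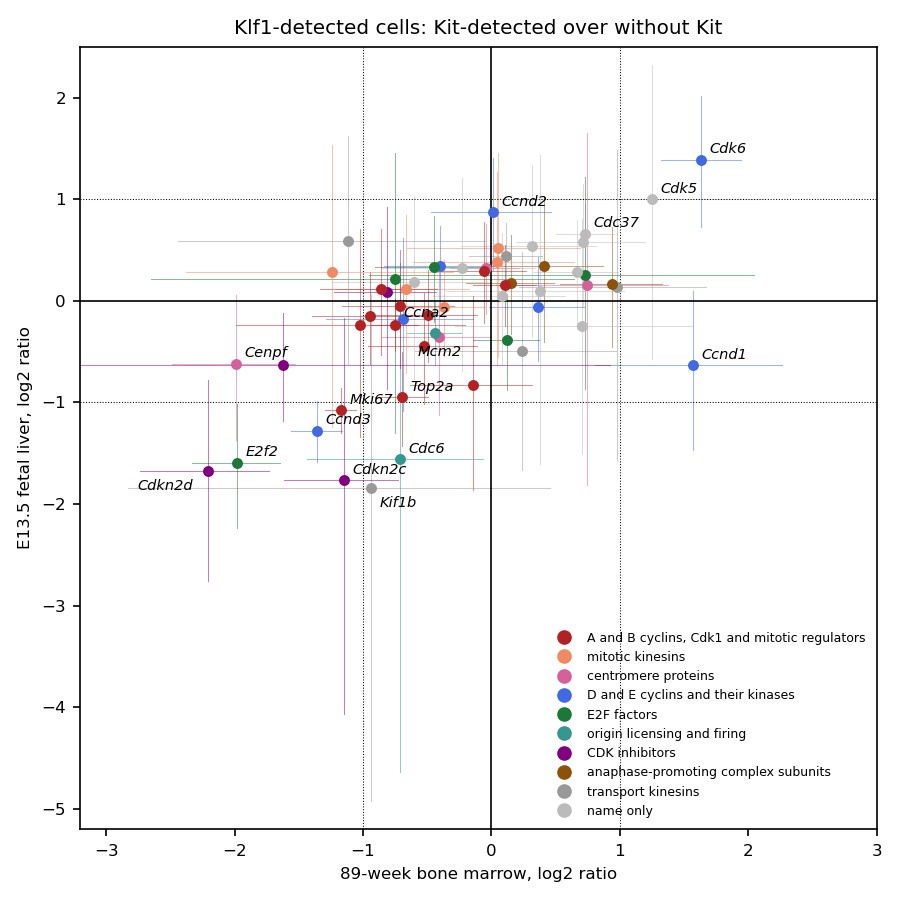
Log2 ratio of CPM in Kit-detected cells over cells without Kit among Klf1-detected cells, with the 89-week bone marrow on the horizontal and the E13.5 fetal liver on the vertical axis, 1 point per gene coloured by role. Cdk6 lies at the upper right (1.64, 1.39), and Cdkn2d, E2f2, Ccnd3 and Mki67 lie at the lower left.

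Over all cells, Kit was found in 165 cells (3.14%) of the fetal liver and 1661 cells (1.18%) of the marrow. Of 53 members in the fetal liver 1 was higher and 5 lower, against 2.18% and 10.8% of all genes, and of 68 in the marrow 2 were higher and 5 lower, against 5.34% and 15%. With detection at 2 counts 3 were higher and 12 lower in the fetal liver, and 11 and 10 in the marrow. The share of all genes was not counted at that setting. Cdk6 was again the higher gene, at 429 against 149 CPM and 944 against 298 CPM. Cdk4, the other kinase of the D cyclins, was past the fold in the marrow, at 64.2 against 28.1 CPM from 25 and 356 counts. E2f2 was lower at 386 against 1035 CPM and 475 against 1262 CPM, and Cdkn2d at 236 against 534 CPM and 334 against 930 CPM. In the fetal liver the direction of Cdkn2d turned where depth was matched, to a log2 ratio of 0.13 in cells thinned to 50 counts and 0.070 in cells of 100 to 300 counts. In the fetal liver Ccnd3, Cdkn1c and Kif1b were lower too, with log2 ratios of -1.13, -1.12 and -1.27. That of Kif1b was 0.44 [-2.64, 2.34] among cells of 100 to 300 counts, an interval that holds 0. In the marrow Kif21b was lower at -1.31. Kif19a and Kif5c, each on 1 count there, were lower with intervals from -7.32 to 0.50 and from -7.19 to 0.63. The mitotic genes as a sum differed little, with log2 ratios of -0.19 and -0.10. In the marrow Kit-detected cells held 54570 CPM of granulocyte genes against 37040 CPM in the others, with 4 of 8 genes higher and 3 lower, whereas macrophage genes took 3352 against 6682 CPM (11 of 13 lower), megakaryocyte genes 3082 against 10409 CPM and B cell genes 970 against 3387 CPM. Macrophage genes of the fetal liver took 1007 against 5052 CPM, with 11 of 11 lower. Their part was not tested.

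C1qa, C1qb and C1qc mark the macrophages of erythroblastic islands. Cells with a C1q transcript were 731 (13.9%) of the fetal liver and 20590 (14.6%) of the marrow. Macrophage genes summed to 23173 CPM in them against 944 CPM in the fetal liver and to 22737 against 2248 CPM in the marrow. These sums include the C1q genes that defined the class. Erythroid genes took similar shares with and without C1q, at 50816 against 51706 CPM and 46273 against 42886 CPM. Klf1 was also found in 258 fetal and 2578 marrow cells with C1q, so the class was not macrophages alone. Few cell cycle genes were past the fold by C1q, as were few genes of the panel. None of 53 fetal members was past the fold, against 4.54% of all genes higher and 1.57% lower. In the marrow none of 68 was higher, against 2.68%, and 1 was lower, against 0.173%: the neuronal kinesin Kif5c at a log2 ratio of -1.27 from 12 and 108 counts. The mitotic genes summed to 14366 CPM with C1q and 14387 CPM without in the fetal liver, and to 12671 and 12447 CPM in the marrow. For Mki67 the log2 ratios were 0.03 and 0.08.

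Among cells without Klf1 the mitotic genes had C1q log2 ratios of -0.11 in the fetal liver and -0.10 in the marrow. There 1 of 49 fetal members was higher and 1 lower, Kif21b at 1.18 and Cdk6 at -1.02, against 5.55% and 3.33% of all genes. None of 68 marrow members was higher, against 2.83%, and Kif5c alone was lower at -1.03, against 0.206%. Distance to C1q was examined as well. Klf1-detected cells without C1q were parted by whether a C1q-detected cell lay within 20 µm, which held for 1130 and not for 294 cells of the fetal liver and for 8998 and 502 cells of the marrow. The mitotic genes had log2 ratios, near over far, of 0.04 [-0.03, 0.12] and 0.06 [-0.00, 0.12]. The CDK inhibitors summed to 1693 CPM near and 1206 CPM far in the fetal liver (0.49 [0.22, 0.76]), where Cdkn1c took 865 and 642 CPM, and had a log2 ratio of 0.04 [-0.14, 0.23] in the marrow. With a distance of 10 µm the inhibitors had 0.35 [0.13, 0.56] in the fetal liver and 0.15 [0.07, 0.24] in the marrow. At 30 µm they had 0.46 [-0.02, 0.98] and 0.54 [-0.06, 1.22], intervals that hold 0. The part of depth and of transcripts of other cell types in these near and far ratios was not tested.

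The size of the nucleus was tried as another axis, since erythroid nuclei condense with maturation. From the smallest to the largest bin of nucleus area among Klf1-detected cells the mitotic genes took 15512, 16248, 18304 and 16913 CPM in the fetal liver. In the marrow they took 20705, 21731, 24917 and 27688 CPM. Largest over smallest, the log2 ratios were 0.12 and 0.42. At 100 to 300 counts the fetal one was 0.83, and by cell area that of the marrow was 0.081. Median depth went from 167 to 578 and from 91 to 293 counts per cell along the same axis. The CDK inhibitors had log2 ratios of -0.63 and 0.09. Several of these directions turned with the setting: by cell area the fetal mitotic genes had -0.065 and the marrow inhibitors -0.40, and among cells of 100 to 300 counts the fetal inhibitors had 0.30, with 0.63 for those of the marrow.

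Klf1-detected cells of the 2 sections were then set against each other. Of 64 members with at least 30 counts, 5 were at least 2-fold higher in the fetal liver and 7 lower, against 17.7% and 19.5% of 3175 genes. Cdkn1c had the largest ratio of the members compared. It took 765 CPM in fetal and 22.8 CPM in marrow Klf1-detected cells (5.07 [4.66, 5.50]), whereas Cdkn2c took 147 against 747 CPM (-2.35 [-2.67, -2.04]), Cdkn1b 192 against 741 CPM (-1.95 [-2.23, -1.68]) and Cdkn2d 463 against 1192 CPM (-1.37 [-1.55, -1.19]). Ccnd1 took 372 against 57.4 CPM (2.70 [2.38, 3.02]) and E2f5 134 against 24.1 CPM (2.47 [1.96, 2.99]). Cdc6 (85.2 against 247 CPM), Cenpf (437 against 1113 CPM), Top2a (1226 against 2453 CPM) and Kif24, a kinesin of centrioles, were lower in the fetal liver. Mki67 took 5425 against 9393 CPM, the mitotic genes 16943 against 24833 CPM, and Mcm2, Ccnd2 and E2f1 lay at log2 ratios of -0.14, 0.01 and 0.02. Hepatocyte genes took 20091 CPM of the fetal class and 15.6 CPM of the marrow class, granulocyte genes 867 and 10892 CPM, and endothelial genes 977 and 296 CPM. Their part was not tested.

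To see which members were found in the same cells, every cell was thinned to 50 counts, which left out 388 cells of the fetal liver and 58188 of the marrow, and pairs were counted against the number of cells expected if the genes were detected independently. In 82519 marrow cells the genes with the most cells above expectation beside Mki67 were Ccna2 (ratio 2.04), Top2a (1.87 [1.78, 1.96]) and E2f2 (1.81). Beside Mcm2 they were Mki67 (1.51), Ccnd3 (1.57, 500 cells against 319 expected) and Ccna2 (1.80). The highest ratios of Mcm2 were with other genes of S phase entry, Cdc6 at 2.49, E2f1 at 2.47 and Ccne1 at 2.41. Within Klf1-detected marrow cells those with E2f1 and Ccne1 were 1.18 [0.76, 1.74] and 1.59 [1.08, 2.24], and Cdc6 was in too few cells to be paired. Mcm2 and Mki67 were found together there in about the number of cells expected. The excess of this pair over all marrow cells was therefore not seen within the class. Medians were taken over pairs with at least 10 cells expected, and genes found in few cells were left out. Over all marrow cells the 135 such pairs of mitotic genes all had a ratio above 1, with a median of 2.00. The 146 such pairs of a mitotic gene with Mcm2, Cdc6, E2f1, E2f2, Ccne1, Ccnd3, Cdc25a or one of the inhibitors Cdkn2c and Cdkn2d had a median of 1.46. Within Klf1-detected marrow cells the median of mitotic pairs was 1.27, with 72 of 84 pairs above 1 and 33 with an interval above 1. Pairs of a mitotic gene with one of the other genes just named had a median of 1.10 there, over 93 pairs. In 4866 fetal cells the median of mitotic pairs was 1.25, with 14 of 18 pairs above 1 and 3 with an interval above 1. There Mki67 was found with Cdkn2d at a ratio of 1.58, with E2f2 at 1.31 and with Ccna2 at 1.22, and with Top2a at 1.00. Among the 26 fetal pairs of a mitotic gene with one of the other named genes, 1.58 was the highest ratio. Of these 26, 17 were above 1 and 2 had an interval above 1. They cover all fetal cells. Within Klf1-detected fetal cells 7 such pairs had a median of 1.07, with 5 above 1 and 2 with an interval above 1.

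The 10% of cells with the highest share of each marker list, among cells with at least 50 counts, showed where else cycle genes lay. The mitotic genes summed to 31699 CPM in the cells highest in erythroid genes of the marrow and to 26721 CPM in those of the fetal liver, of which 41.6% and 37.6% had a Klf1 transcript. The other lists that could be used gave less in both sections: in the marrow 9759 CPM for macrophage, 9042 for progenitor, 7836 for granulocyte, 6343 for megakaryocyte and 5347 for B cell genes, and in the fetal liver from 9246 CPM for hepatocyte to 14270 CPM for macrophage genes. Single members departed from this order. In the marrow Cdk6 took 830 CPM in the granulocyte-high and 714 CPM in the progenitor-high cells against 54.6 CPM in the erythroid-high ones, Kif21b 986 CPM in the B cell-high cells, and Kif5b, the conventional kinesin motor, 2112 CPM in the megakaryocyte-high cells. In the fetal liver Cdkn1c took 2337 CPM in the endothelial-high and 1841 CPM in the megakaryocyte-high cells against 778 CPM in the erythroid-high ones, and Ccnd1 946 CPM in the hepatocyte-high against 296 CPM in the erythroid-high cells.

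**Figure D5:**
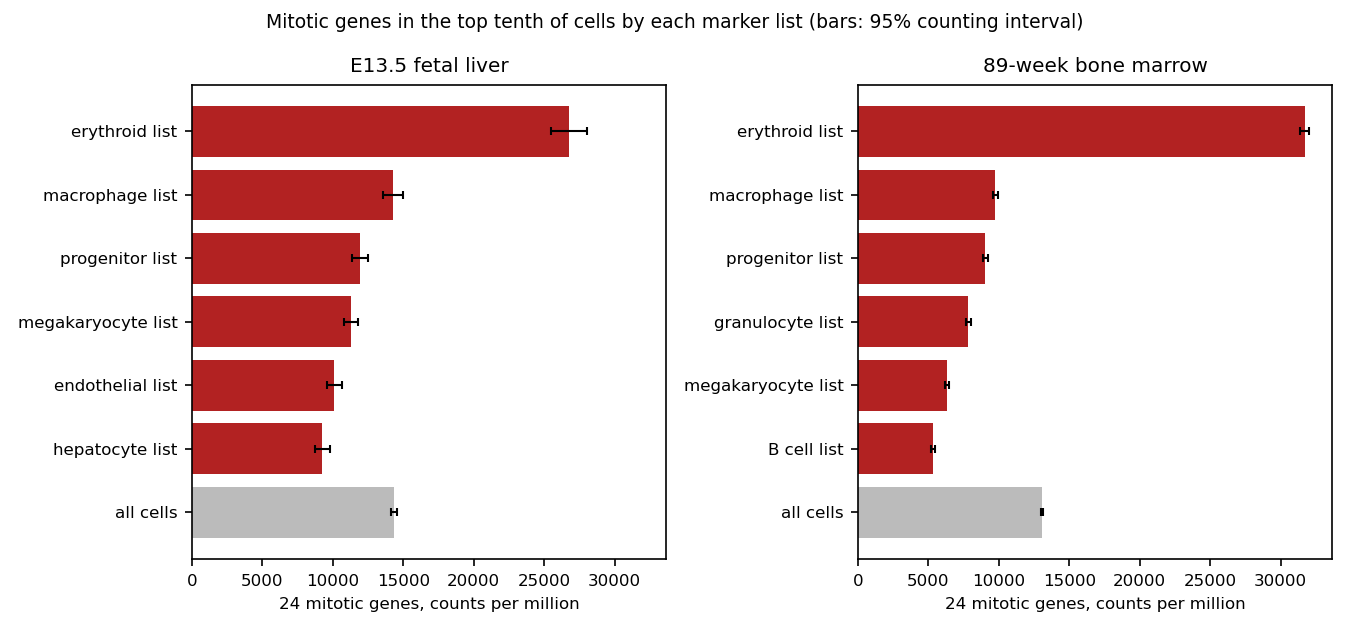
Summed CPM of the 24 mitotic genes in the 10% of cells with the highest share of each marker list, for the E13.5 fetal liver and the 89-week bone marrow, as bars from 0. The erythroid bar is the tallest in both sections, at 26721 and 31699 CPM.

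The smaller panel gave the same comparison for Cenpf and for Ube2c, the ubiquitin-conjugating enzyme of the anaphase-promoting complex, in other sections and animals. In the E14.5 fetal liver Ube2c took 9702 CPM in Klf1-detected cells and 5723 CPM in the others, a log2 ratio of 0.76 [0.74, 0.78], and Cenpf had 0.71 [0.68, 0.74]. In P8 bone marrow Ube2c took 7112 against 2248 CPM (1.66) and Cenpf had 1.34 [1.30, 1.38]. In the untreated spleen, where 3611 cells had Klf1, the log2 ratios were 2.21 [2.14, 2.28] and 2.05 [1.96, 2.14]. In the PHZ-treated spleen, where 44644 had it, Ube2c took 13234 against 3314 CPM (2.00 [1.97, 2.02]) and Cenpf 5443 against 1199 CPM (2.18 [2.14, 2.22]). The log2 ratios by Kit and by C1q lay between -0.40 and 0.52 in these 4 sections. By C1q, Cenpf and Ube2c had 0.30 and 0.31 in P8 marrow but -0.36 and -0.40 in the PHZ-treated spleen. They had -0.11 and -0.01 in the E14.5 fetal liver and 0.02 and 0.16 in the untreated spleen. Some classes were wide: C1q was found in 59780 cells of the PHZ-treated spleen and not in 34712, and in 65589 and 42738 of the untreated one. Klf1 was found in 94856 cells of the E14.5 fetal liver and not in 22467.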

How the data were processed

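Per the labels, 6 mouse sections were imaged on the Xenium platform. The authors deposited raw transcript counts for every gene in every segmented cell, not normalized, made by Xenium Onboard Analysis 1.7.1.0 for the smaller and 3.1.0.4 for the larger panel (the study's methods name Space Ranger). Cell position and area, deposited in µm and µm² per cell, were used as the signal for size and distance. Cells with at least 5 detected genes were kept, as in the study's methods. Doublets were not called, and cells were classed by detection of at least 1 count, not by type. Counts were summed over each class and divided by the total. Log2 ratios have exact conditional binomial 95% intervals; genes needed 100 counts over both classes, or 30 in small classes, and were called past a fold of 2. With 1 section per condition no test was made. The members and lists were chosen with earlier results of these data known. Genes named in the text were Mki67, Top2a, Ube2c, the cyclins, Cdk1, Cdk2, Cdk4, Cdk6 and the Cdkn genes, the 8 largest ratios in each direction, the 10 highest levels, and 3 partners in joint detection; others were added after their values were seen. The Slc4a1 bins, the cells highest in each marker list, joint detection in Klf1-detected cells, and cells of 100 to 300 counts in the bins and on the smaller panel were added after seeing the data. Alternatives were other totals, filters, detection and folds, cells thinned to 50 counts, cells of 100 to 300 counts, mean shares per cell, and either side of a section. Scripts ran in Python 3.11.15 with numpy 2.4.6, pandas 2.3.3, scipy 1.17.1 and matplotlib 3.10.9, and were tested on simulated data.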

Additional observations from a re-analysis of the deposited data

Results flagged for a closer look

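Some members had ratios of opposite sign in the fetal liver and in the marrow, each beyond its counting interval; the difference itself was not tested. For Klf1-detected cells over the others, the log2 ratio of Cdk6 was 0.40 in the fetal liver and -0.20 in the marrow, that of the transcriptional kinase Cdk9 was 0.29 and -0.24, that of Cdkn2d was -0.26 and 0.49, and that of Kif5b was 0.16 and -0.37. For C1q-detected cells over the others, the log2 ratio of Cdkn2d was 0.32 and -0.13, that of Kif21b was 0.86 and -0.37, and that of Kif5b was 0.26 and -0.13. All of these were below 2-fold.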

How the results depend on the processing

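No paired analysis was possible because each condition is 1 section. Of 132 alternative values for counts of members past the fold and other main values, 77 stayed within 1.5 times or within the counting interval and 55 moved further. Of the 28 that were log2 ratios 6 changed sign, none of them past the fold. Of the 96 that were counts 5 had more members on the other side than before, namely C1q in the marrow (1 higher and 0 lower, at 100 to 300 counts and on the left side), C1q in marrow cells without Klf1 (2 and 0 with detection at 2 counts, 1 and 0 thinned) and Kit in the marrow (11 and 10 with detection at 2 counts). Of 2899 values for named genes and role groups, 2226 stayed and 673 did not. Of all 2899, 249 changed sign, 8 of them from a value past the fold. The cause was not tested for any of them.

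These 8 log2 ratios were 0.30 for Cdc42 and 0.037 for Cdkn2c between sections by counts per kept cell; for Kit in the fetal liver, 0.13 for Cdkn2d in thinned cells, and 0.070 for Cdkn2d and 0.44 for Kif1b in cells of 100 to 300 counts; 0.78 for Cdc6 by Kit in thinned fetal Klf1-detected cells; 0.50 for Kif19a by Kit in thinned marrow cells; and 0.66 for Cdkn1c by Kit in marrow Klf1-detected cells of 100 to 300 counts.

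Between sections 12 members were past the fold, and 56 by counts per kept cell, 45 by cell area and 30 at a fold of 1.5. For the alternatives of this paragraph the share of all genes past the fold was mostly not counted. It was counted at 100 to 300 counts for Kit within Klf1-detected cells and for the Slc4a1 bins. Elsewhere a changed count cannot be read as particular to the members. For Klf1 in the fetal liver the count of 4 became 7 with detection at 2 counts, 2 in thinned cells, and 1 at 100 to 300 counts and by mean share. With detection at 2 counts, 6 became 15 for Kit in the fetal liver, 9 became 18 within fetal Klf1-detected cells (18 also at 100 to 300 counts), 7 became 21 for Kit in the marrow (4 at 100 to 300 counts), and 14 became 24 within marrow Klf1-detected cells. For C1q in the fetal liver 0 became 1 without the 10 most abundant genes, at 100 to 300 counts, by mean share and on the right side, and 2 with detection at 2 counts, in cells with only 1 of the 3 classes, and on the left side. In fetal cells without Klf1, 2 became 4 with detection at 2 counts, 1 thinned, at 100 to 300 counts and on the left side, 5 by mean share and 0 on the right side. For C1q in the marrow 1 became 2 with detection at 2 counts, thinned and by mean share, and 0 on the right side; without Klf1 it became 2 with detection at 2 counts and by mean share, and 0 at 100 to 300 counts and on either side. The counts for Klf1 in the marrow, for Klf1-detected cells between sections and for the Slc4a1 bins stayed within 1.5 times.

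For nucleus area, fetal mitotic genes went from 0.12 to -0.065 by cell area and 0.83 at 100 to 300 counts, and fetal CDK inhibitors from -0.63 to 0.30 at 100 to 300 counts. In the marrow, by cell area and at 100 to 300 counts, mitotic genes went from 0.42 to 0.081 and 0.59, and CDK inhibitors from 0.09 to -0.40 and 0.63, while licensing genes went from 0.03 to -0.30 at 100 to 300 counts. Within 30 µm of a C1q-detected marrow cell, mitotic genes had -0.11 and CDK inhibitors 0.54. In Klf1-detected cells alone the joint ratio of Mki67 with Top2a was 1.32 in the fetal liver and 1.22 in the marrow (1.72 in all marrow cells thinned to 100 counts), and that with Mcm2 was 0.83 and 1.02. On the smaller panel at 100 to 300 counts, Cenpf had 1.28 in P8 marrow, 1.71 in the spleen without and 2.09 in that with PHZ, and Ube2c 1.94 and 1.96 in these spleens. In the Klf1 comparison 21 members of the fetal liver and 6 of the marrow had fewer than 100 counts.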
